A study of Mus musculus with 5 samples.

Results

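A list of 10 endothelial markers was followed across 5 RNA-seq libraries labelled as visceral fat of male C57BL/6 mice. They comprise 8 genes used to mark blood vessel endothelium (Pecam1, Cdh5, Kdr, Flt1, Tek, Tie1, Vwf and Cd34) and 2 used for lymphatic endothelium (Prox1 and Flt4). All 10 were found by Ensembl identifier among the 78334 genes of the count table, and all 10 passed the filter on low counts that left 29855 genes for testing. The markers were chosen as a named list of known endothelial genes, with no threshold on their values but with earlier results of these data known.

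The libraries fall into 3 groups. The curcumin-treated group (2 libraries) came from diabetic mice dosed by mouth with curcumin, a polyphenol of turmeric, at 50 mg/kg daily over 28 days from 11 weeks of age. The diabetes group (2 libraries) had the same diabetes model and received vehicle. In both of these groups streptozotocin, a toxin of insulin-producing cells, had been injected at 70 mg/kg when pups were 2 days old, and a diet with 60% of its calories as fat was begun at 3 weeks of age and kept for 8 weeks. The control group (1 library) was fed standard chow and given vehicle. In all 3 groups, treatment or vehicle ran for 4 weeks from 11 weeks of age. Whether replicate libraries stem from separate mice is not stated in the labels, so a p-value here reflects only library-to-library spread, possibly technical, and the control has no spread of its own.

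Endothelial cells line every blood and lymphatic vessel. Their identity and growth are governed by receptor tyrosine kinases of the VEGF and Tie families. Kdr (VEGFR2) carries the main growth signal of VEGF-A in blood vessels, Flt1 (VEGFR1) binds the same ligand tightly and limits what reaches Kdr, and Flt4 (VEGFR3) serves VEGF-C and VEGF-D in lymphatic vessels. Tek (Tie2) is the receptor of the angiopoietins, and Tie1 is its partner with no ligand of its own that is generally agreed on. In fat, capillaries lie against the adipocytes and take up the fatty acids that lipoprotein lipase releases.

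Before the values, the stretch just upstream of the start site is shown for 4 blood vessel members, since Kdr and Tek are receptors that ranked the libraries alike, Flt1 is a receptor that ranked them otherwise, and Cd34 varied least between libraries. The sequences are from RefSeq on GRCm38.p6 and run 5′ to 3′ on the gene's strand. Capitals mark AGGAAG or CGGAAG on either strand, the core letters bound by ETS factors, a family that includes the endothelial regulators Erg and Fli1. The windows are chr5:75978459-75978705 (minus strand) for Kdr, chr5:147726012-147726261 (minus strand) for Flt1, chr4:94739039-94739288 (plus strand) for Tek and chr1:194938571-194938818 (plus strand) for Cd34.
Kdr: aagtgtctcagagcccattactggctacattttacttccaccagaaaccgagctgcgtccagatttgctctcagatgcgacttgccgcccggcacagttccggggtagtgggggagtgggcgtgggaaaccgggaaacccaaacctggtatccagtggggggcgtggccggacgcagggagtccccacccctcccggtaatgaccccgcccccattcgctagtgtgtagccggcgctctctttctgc
Flt1: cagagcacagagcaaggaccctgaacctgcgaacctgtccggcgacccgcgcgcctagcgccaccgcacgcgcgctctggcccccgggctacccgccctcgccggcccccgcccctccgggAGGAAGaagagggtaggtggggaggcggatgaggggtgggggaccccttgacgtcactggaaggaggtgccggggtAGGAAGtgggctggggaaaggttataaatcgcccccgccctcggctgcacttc
Tek: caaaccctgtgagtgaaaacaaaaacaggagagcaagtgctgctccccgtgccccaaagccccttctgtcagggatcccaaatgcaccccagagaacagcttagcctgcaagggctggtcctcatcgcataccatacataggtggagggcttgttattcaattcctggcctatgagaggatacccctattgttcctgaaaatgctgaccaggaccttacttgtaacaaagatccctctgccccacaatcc
Cd34: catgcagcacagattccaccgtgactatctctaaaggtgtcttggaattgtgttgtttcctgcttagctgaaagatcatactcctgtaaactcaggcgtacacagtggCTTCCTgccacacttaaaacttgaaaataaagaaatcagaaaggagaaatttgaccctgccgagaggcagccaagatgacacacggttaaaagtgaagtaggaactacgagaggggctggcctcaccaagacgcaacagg
Flt1 held 2 such matches, centred 126 and 50 bases before the start site, and Cd34 held 1, centred 139 bases before it. Neither the Kdr nor the Tek window held one. Promoter windows were at hand for 7 of the 10 members, 8 windows in all. Over the 250 bases before the start, 3 of the 8 windows (37.5%) held a match, against 39.2% of the 32851 windows of the same length in the table, so the members' share was near that of all promoters. The letters AGATAA or TGATAA on either strand, which GATA factors bind, were in 0 of the 8 windows and in 16.6% of all windows. These matches describe letters only.

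Levels are in CPM, the count of a gene scaled to the library total. Library totals ran from 25378046 to 42422890 counts. A count of 0 allows up to 3 counts, which is 0.0707 CPM in curcumin-treated 2 and 0.108 to 0.118 CPM in the other 4 libraries. Intervals and limits cover counting error only. Low counts were scarce in the 2 libraries with members at 0: 1292 genes had 1 to 5 counts in diabetes 1 and 4216 in control 1, against 8960 to 19751 in the other 3, although the totals of diabetes 1 and 2 were nearly equal. Limits and bounds taken from a 0 in diabetes 1 or control 1 may therefore not hold. In bulk RNA, fewer endothelial cells and less RNA per cell cannot be told apart.

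The tissue label was checked against marker genes, and libraries of one group stood apart from each other. A list of 10 adipocyte genes summed to 3837 and 150 CPM in curcumin-treated 1 and 2, to 89.9 and 35285 CPM in diabetes 1 and 2, and to 453 CPM in control 1. Pparg and Retn, defining adipocyte genes named after their values were seen, were at 0 in diabetes 1. A list of 12 genes of the epididymis, the sperm duct beside gonadal fat, summed to 6075 and 109804 CPM in the curcumin-treated libraries, to 67942 and 16.0 CPM in the diabetic ones and to 73029 CPM in control 1. Diabetes 2 was thus the library richest in adipocyte transcripts and had 7 of the 12 epididymal genes at 0. The members' fold changes and their median were therefore also computed without each replicated library in turn.

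Pecam1 and Cdh5 encode adhesion proteins of the contacts between endothelial cells, PECAM-1 and VE-cadherin. Blood cells are another source of Pecam1. Pecam1 (ENSMUSG00000020717) had 42.4 and 14.6 CPM in curcumin-treated 1 and 2, 8.96 and 105 CPM in diabetes 1 and 2, and 35.0 CPM in control 1. Cdh5 (ENSMUSG00000031871) had 19.0 and 7.57 CPM in the curcumin-treated libraries, 3.65 and 55.9 CPM in the diabetic ones and 18.9 CPM in control 1. For both genes the 2 diabetic libraries were the extremes of the series, with the curcumin-treated and control libraries between them, so no group was separate from another. The gap inside the diabetes group was 11.8-fold for Pecam1 and 15.3-fold for Cdh5, the widest of the 8 blood vessel members. Inside the curcumin-treated group, replicate 1 was 2.90-fold above replicate 2 for Pecam1 and 2.51-fold for Cdh5. The ratio of the 2 genes moved far less than either level, with 2.23 and 1.93 Pecam1 counts per Cdh5 count in curcumin-treated libraries, 2.45 and 1.89 in diabetic libraries and 1.85 in control 1. The leukocyte gene Ptprc had 18.1 and 6.15 CPM in curcumin-treated libraries, 6.52 and 114 CPM in diabetic ones and 4.11 CPM in control 1. The part of blood cells in the Pecam1 level was not tested.

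Among the VEGF receptors, Kdr (ENSMUSG00000062960) had 21.5 and 8.89 CPM in the curcumin-treated libraries, 4.83 and 35.8 CPM in the diabetic ones and 22.4 CPM in control 1. Diabetes 2 was again highest and diabetes 1 lowest, and both curcumin-treated libraries lay below the control, curcumin-treated 1 only slightly. Flt1 (ENSMUSG00000029648) had 12.8 and 12.9 CPM in curcumin-treated 1 and 2, against 4.68 and 28.9 CPM in diabetes 1 and 2 and 32.9 CPM in control 1. It was the only member with its highest level in the control, and its 2 curcumin-treated libraries were the closest pair of replicates among all members (12.9 ± 0.0418 CPM, SD, n = 2). All 4 libraries of the diabetes model lay below the control for Flt1. Per Kdr count there were 0.598 and 1.45 Flt1 counts in the curcumin-treated libraries, 0.967 and 0.807 in the diabetic ones and 1.47 in control 1. The Flt1 share was thus as high in curcumin-treated 2 as in the control and lowest in curcumin-treated 1.

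Tek and Tie1 make up the angiopoietin receptor pair. Blood cells are another source of Tek, and their part in its level was not tested. Tek (ENSMUSG00000006386) had 5.61 and 4.57 CPM in curcumin-treated libraries, 3.46 and 23.5 CPM in diabetic libraries and 6.07 CPM in control 1. Diabetes 2 stood above all others at 6.80 times diabetes 1, and the other 4 libraries lay within a narrow range. Tie1 (ENSMUSG00000033191) had 21.6 and 5.21 CPM in the curcumin-treated libraries, 2.79 and 26.8 CPM in the diabetic ones and 20.8 CPM in control 1. It split the curcumin-treated pair more than any other blood vessel member, with replicate 1 at 4.15 times replicate 2. The 2 receptors did not keep a fixed ratio. Tie1 had 3.85 and 1.14 counts per Tek count in curcumin-treated 1 and 2, 0.807 and 1.14 in diabetes 1 and 2, and 3.43 in control 1.

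Vwf encodes von Willebrand factor, the clotting protein that endothelium stores and releases, which megakaryocytes also make. Vwf (ENSMUSG00000001930) had 21.4 and 14.9 CPM in curcumin-treated libraries, 7.23 and 39.3 CPM in diabetic libraries and 21.1 CPM in control 1. The order of the libraries was that of Pecam1, Cdh5 and Tie1, over a narrower range, with diabetes 2 at 5.44 times diabetes 1. The megakaryocyte gene Itga2b had 60.7 and 39.6 CPM in curcumin-treated libraries, 19.9 and 2.84 CPM in diabetic ones and 46.4 CPM in control 1, so it was lowest in diabetes 2, where Vwf was highest. The platelet gene Pf4 was instead highest there, at 13.2 and 4.15 CPM in curcumin-treated libraries, 1.57 and 45.9 CPM in diabetic ones and 3.26 CPM in control 1, as were the scarcer Ppbp and Gp9, all 3 added after their values were seen. Megakaryocyte and platelet genes thus pointed both ways, and their part in the Vwf level was not tested.

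Cd34, a surface sialomucin of capillary endothelium, is also made by stromal progenitors and blood stem cells. Cd34 (ENSMUSG00000016494) had 45.4 and 74.4 CPM in curcumin-treated 1 and 2, 59.4 and 99.9 CPM in diabetes 1 and 2, and 98.1 CPM in control 1. It was the least variable member (2.20-fold from lowest to highest library) and the only one with its lowest level in curcumin-treated 1. Diabetes 2 and control 1 were nearly equal, and their counting intervals (96.0 to 104 CPM and 94.4 to 102 CPM, exact Poisson) overlap. Cd34 made up 22.8% and 51.0% of the 10 members' counts in curcumin-treated 1 and 2, 62.5% and 23.7% in diabetes 1 and 2, and 37.5% in control 1. Its share was therefore highest where Pecam1 and Cdh5 were lowest, with 2.39 and 9.83 Cd34 counts per Cdh5 count in the curcumin-treated libraries, 16.3 and 1.79 in the diabetic ones and 5.20 in control 1. Pdgfra, the receptor that marks stromal progenitors and a gene singled out after its values were seen, had 32.6 and 136 CPM in curcumin-treated libraries, 145 and 79.1 CPM in diabetic libraries and 160 CPM in control 1. Like Cd34 it was lowest in curcumin-treated 1, but it was not highest in diabetes 2. Of the 7 stromal progenitor genes, 5 were highest in diabetes 2, as Cd34 was. The part of stromal cells in the Cd34 level was not tested. Exons of Cd34 share 148 bases with the antisense gene Gm16897 in the GRCm38 annotation, which had 14 to 61 counts per library against 1263 to 3156 for Cd34.

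**Figure D1:**
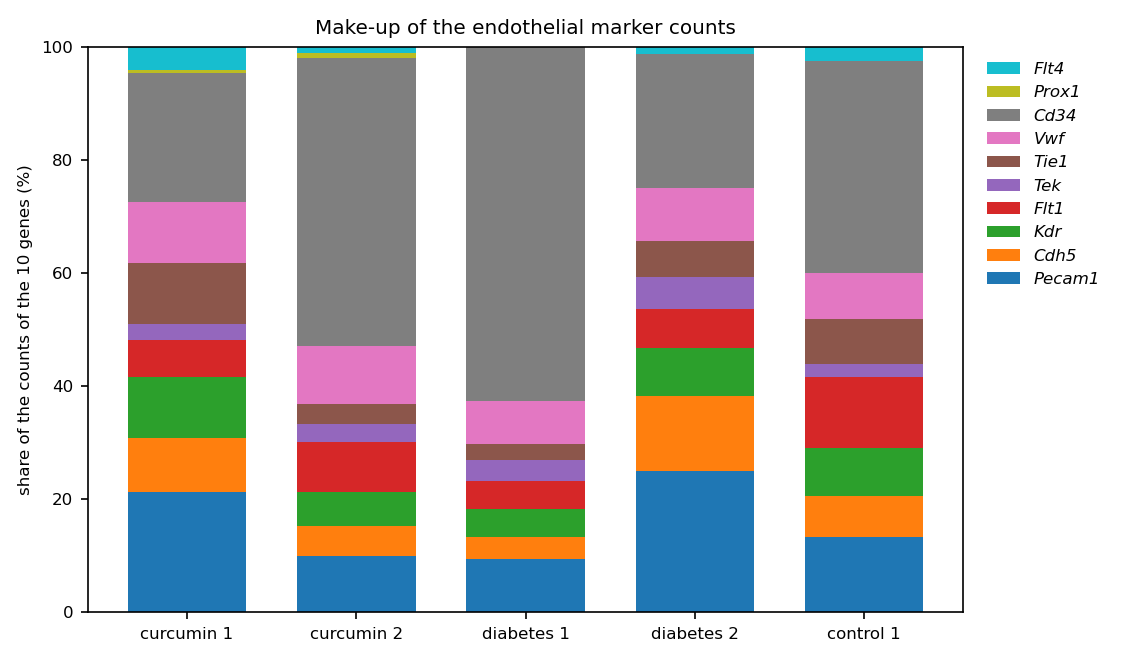
Make-up of the endothelial marker counts in each library, as the share (%) of the summed counts of the 10 genes that each gene holds, with 1 stacked bar per library. Cd34 fills 62.5% of the diabetes 1 bar and 51.0% of the curcumin-treated 2 bar, against 22.8% to 37.5% in the other libraries.

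The lymphatic members were the scarcest. Prox1 encodes the transcription factor that sets lymphatic identity. Prox1 (ENSMUSG00000010175) had 25 and 50 counts in curcumin-treated 1 and 2 (0.899 and 1.18 CPM), 0 and 12 counts in diabetes 1 and 2 (0 and 0.473 CPM) and 0 counts in control 1. Both curcumin-treated libraries were above both diabetic ones and the control, and it was the only member that separated the curcumin-treated from the diabetic libraries. The exact Poisson interval of curcumin-treated 1 (0.582 to 1.33 CPM) overlaps that of diabetes 2 (0.244 to 0.826 CPM). If low counts were recorded in control 1 as counting error assumes, then against its limit for 0 counts the curcumin-treated mean (1.04 CPM) was at least 9.36-fold higher and the diabetes mean (0.236 CPM) at least 2.13-fold higher.

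Other genes of this level were also at 0. Diabetes 1 lacked any count for 23.1%, and control 1 for 9.70%, of the 1247 genes whose count in curcumin-treated 2 was within 20% of the 50 of Prox1. Prox1 exons share 133 bases with the antisense gene Prox1os, which had 5 counts in curcumin-treated 1 and 0 in the other libraries.

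Flt4 (ENSMUSG00000020357) had 227 and 69 counts in the curcumin-treated libraries (8.16 and 1.63 CPM), 0 and 123 counts in the diabetic ones (0 and 4.85 CPM) and 181 counts in control 1 (6.70 CPM). Curcumin-treated 1 and control 1 were highest, and both diabetic libraries lay below the control. The 0 in diabetes 1 was less common among genes of this level, since 0.498% of 1204 genes with counts within 20% of the control's 181 were at 0 there. Measured from curcumin-treated 1, where Flt4 had 227 counts, 5.12% of 1171 such genes were at 0 in diabetes 1.

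Within the VEGF receptors, Flt4 held 19.2% of the counts in curcumin-treated 1 (95% Wilson interval 17.1% to 21.6%) and 6.95% in curcumin-treated 2 (5.53% to 8.70%). It held 0 of 242 counts in diabetes 1, which allows up to 1.24%, and 6.96% in diabetes 2 (5.87% to 8.25%). In control 1 it held 10.8% (9.40% to 12.4%). Relative to its blood vessel counterparts, Flt4 was thus nearly equal in curcumin-treated 2 and diabetes 2, although its CPM differed between them, and highest in curcumin-treated 1. Both lymphatic members together made up 4.56% and 1.92% of all member counts in the curcumin-treated libraries, 0% and 1.26% in the diabetic ones and 2.56% in control 1. The 0 of 2419 counts in diabetes 1 allows up to 0.124%.

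**Figure D2:**
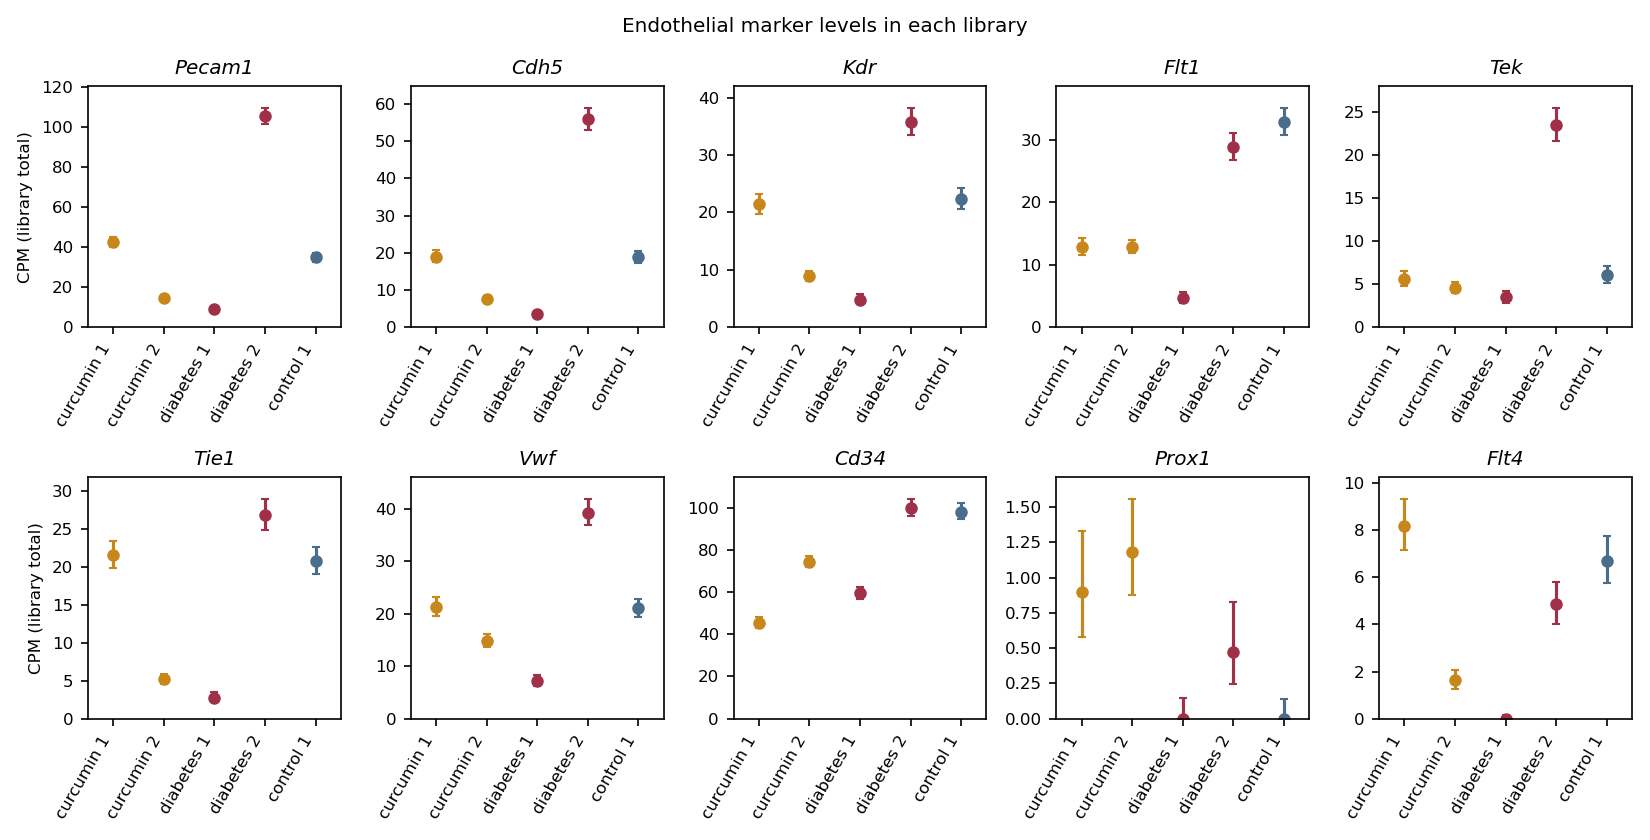
Level of each endothelial marker in each library, in CPM scaled to the library total, with 1 panel per gene and axes that start at 0. Points are single libraries and bars are 95% exact Poisson intervals of the count; in 7 of 10 panels diabetes 2 is highest, and diabetes 1 is lowest in 8 and tied at 0 with the control for Prox1.

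Set per kilobase of transcript, with lengths from the GRCm38 annotation, levels can be compared between genes. Cd34 ranked first and Pecam1 second in all 5 libraries, at 14.8 and 12.3 CPM per kb in curcumin-treated 1, 24.3 and 4.25 in curcumin-treated 2, 19.4 and 2.60 in diabetes 1, 32.6 and 30.6 in diabetes 2, and 32.0 and 10.2 in control 1. Prox1 ranked last in every library, tied with Flt4 in diabetes 1. Tie1 moved most between libraries in rank, from the third place in curcumin-treated 1 and control 1 to the eighth in diabetes 1. Flt4 took the eighth or the ninth place throughout.

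Summed over the 10 members, endothelial markers took 199 and 146 CPM in curcumin-treated 1 and 2, 95.05 and 421 CPM in diabetes 1 and 2, and 262 CPM in control 1. Without Cd34 the sums were 153 and 71.4 CPM in the curcumin-treated libraries, 35.6 and 321 CPM in the diabetic ones and 164 CPM in control 1. On either sum the diabetic libraries were the extremes and every other library lay between them. Diabetes 2 was the highest library for 7 of the 10 members, against 22% of all tested genes. Diabetes 1 was strictly lowest for 8 of the 10, against 21.2%.

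Curcumin treatment was set against untreated diabetes to describe how treated and untreated tissue of the disease model differed. Of the 29855 genes tested, 0% were called by edgeR's quasi-likelihood test at a Benjamini-Hochberg adjusted p under 0.05, and 0 of the 10 members. At an unadjusted p under 0.05, edgeR picked 696 genes (2.33%) and none of the members. DESeq2 called 95 genes (0.318%) and none of the members, and limma-voom called 0. DESeq2 gave no adjusted p to 9840 of the 29855 genes, Prox1 among them. The members' log2 fold changes ran from -1.50 for Tek (SE 1.06, edgeR adjusted p = 0.852) to 2.05 for Prox1 (SE 1.96, edgeR adjusted p = 0.865). Cdh5 stood at -1.31 (SE 1.28), Pecam1 at -1.15 (SE 1.198), Kdr at -0.55 (SE 1.05), Flt1 and Vwf at -0.46 (SE 0.95 and 0.90), Cd34 at -0.42 (SE 0.58), Tie1 at -0.29 (SE 1.22) and Flt4 at 0.84 (SE 2.08). All 8 blood vessel members had a negative fitted value, as had 48.1% of all genes tested, and both lymphatic members a positive one, as had 51.7%. The median over the 10 was -0.46, against 0.052 over all genes. The signs of the blood vessel members rest on diabetes 2. Without that library the median of the 10 was 1.70 and the 8 blood vessel members ran from 0.13 (Cd34) to 2.29 (Tie1), while without diabetes 1 the 10 had a median of -1.25. Tie1 also turned positive (0.33) without curcumin-treated 2. Prox1 stayed positive whichever library was left out, and Flt4 stood at -0.58 without curcumin-treated 1 and at -0.16 without diabetes 1. Non-overlap of the libraries was met by Prox1 alone, in the higher direction, against 17.9% of all tested genes that were higher without overlap and 9.72% that were lower.

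**Figure D3:**
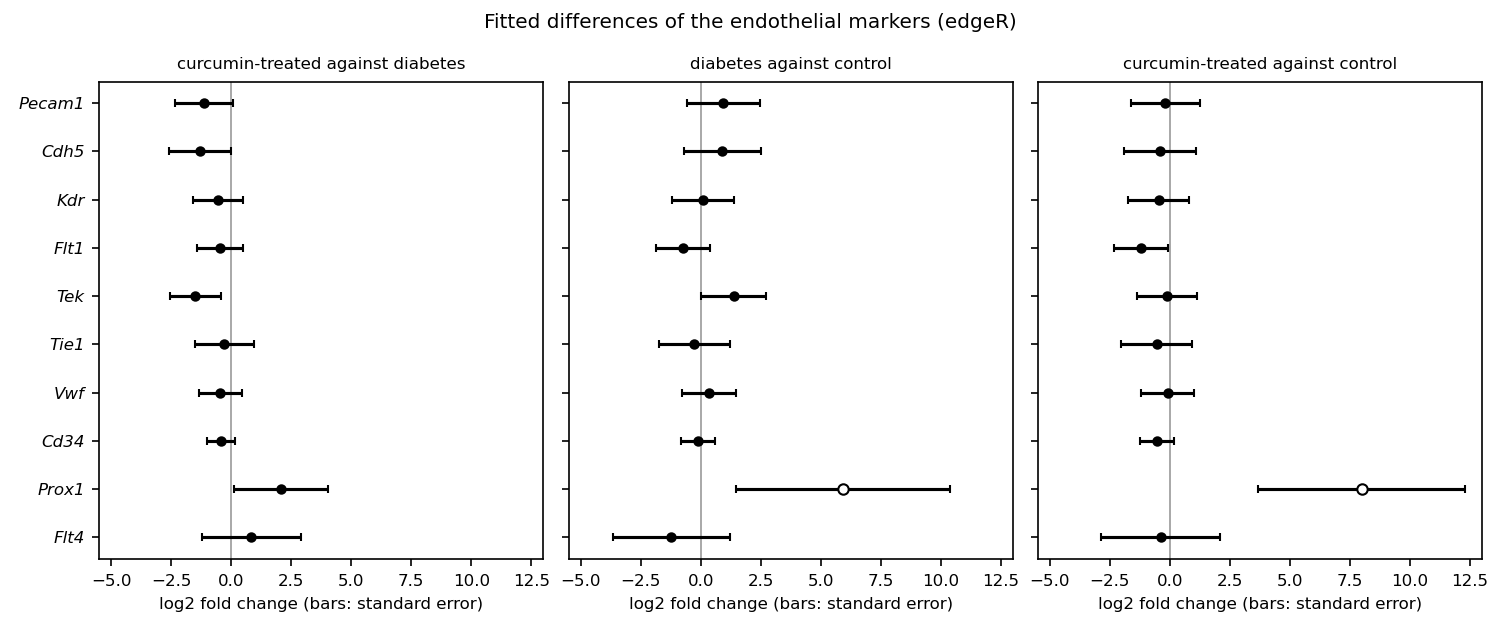
Fitted log2 fold changes of the 10 endothelial markers in the 3 comparisons by edgeR; bars are standard errors and open circles mark Prox1 against a control at 0 counts, where the fitted size is no bound. Most bars cross 0, and no marker passed the adjusted threshold in any comparison.

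To ask whether the members shifted relative to one another, each was also expressed as a log2 ratio to the sum of the other 9 (after adding 0.5 counts). With 2 libraries against 2, an exact two-sided permutation test cannot give a p below 0.333, and that value was reached by Prox1, Tek and Vwf. For Prox1 the ratio was -7.75 and -6.93 in the curcumin-treated libraries and -9.74 in diabetes 2, while in diabetes 1, at 0 counts, it is set by the added 0.5 counts and no difference is given. Tek averaged -5.02 in curcumin-treated and -4.40 in diabetic libraries, a difference of -0.63, and Vwf averaged -3.09 and -3.44 in those groups, a difference of 0.34. For the other 7 members the groups overlapped on this ratio. Pecam1 and Cdh5 differed by -0.10 and -0.044. The separation depended on the base: relative to Pecam1 and Cdh5 alone, Tek and Vwf overlapped between the groups (exact p = 0.667), and Prox1, Tie1 and Flt4 did not (exact p = 0.333).

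The diabetes model was set against the control to describe how tissue of the model differed from that of mice without it. edgeR called 0% of the genes and 0 of the 10 members (adjusted p = 1 for each), and at an unadjusted p under 0.05 it picked 440 genes (1.47%) and none of the members. DESeq2 called 58 genes (0.194%) and limma-voom 0, with no member in either. DESeq2 left 9261 of the 29855 genes without an adjusted p, Prox1 among them. Log2 fold changes were 1.37 for Tek (SE 1.36), 0.94 for Pecam1 (SE 1.51), 0.89 for Cdh5 (SE 1.60), 0.36 for Vwf (SE 1.12), 0.083 for Kdr (SE 1.29), -0.13 for Cd34 (SE 0.71), -0.26 for Tie1 (SE 1.48), -0.75 for Flt1 (SE 1.13) and -1.22 for Flt4 (SE 2.44). Of the 10, 6 were above 0, against 52.4% of all genes, and 4 below, against 45.2%. The median was 0.22, against 0.070 over all genes, and it was 1.03 without diabetes 1 and -2.05 without diabetes 2. Flt1 and Flt4 lay below the control in both diabetic libraries, as did 34.5% of all tested genes. No member lay above the control in both, against 17.3% of all genes.

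The curcumin-treated libraries were set against the control to show how far the treated mice stood from untreated ones without diabetes. Again edgeR called 0% of the genes and 0 of the 10 members (adjusted p = 1 for each), with 112 genes (0.375%) at an unadjusted p under 0.05 and none of the members. DESeq2 called 77 genes (0.258%), none of them a member, and limma-voom called 0. Fitted log2 values were -1.21 for Flt1 (SE 1.12), -0.55 for Cd34 (SE 0.70) and -0.47 for Kdr (SE 1.26), and between -0.56 and -0.10 for Tie1, Cdh5, Flt4, Pecam1, Tek and Vwf. Prox1 alone was above 0, against 57.3% of all genes, and the other 9 below, against 41.9%. The median was -0.40, against 0.17 over all genes. Kdr, Flt1, Tek and Cd34 were below the control in both curcumin-treated libraries, against 34% of all tested genes, and Prox1 was above it, against 24.6%. Kdr, Flt1, Tek, Cd34 and Prox1 kept their sign without any 1 of the replicated libraries. Flt1 stood at -1.34 to -1.11 and Kdr at -1.10 to -0.049. Pecam1, Cdh5, Tie1, Vwf and Flt4 changed sign without curcumin-treated 2. These 3 comparisons share libraries in pairs, so they are not independent of each other.

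A list of 18 further endothelial genes was set beside the members. It summed to 360 and 188 CPM in curcumin-treated libraries, 105 and 599 CPM in diabetic libraries and 355 CPM in control 1, the same order as the members without Cd34 except that curcumin-treated 1 and control 1 were nearly level and changed places. Diabetes 2 was highest for 13 of the 18 and diabetes 1 lowest for 17. Against diabetes, 7 of the 18 were positive with curcumin and 0 were called. Ptprb, the phosphatase that acts on Tek and VE-cadherin, had 13.6 and 7.31 CPM in the curcumin-treated libraries, 6.13 and 71.8 CPM in the diabetic ones and 22.4 CPM in control 1. S1pr1, the receptor for sphingosine 1-phosphate, had 10.5 and 3.04 CPM in curcumin-treated libraries, 3.03 and 53.5 CPM in diabetic libraries and 11.9 CPM in control 1. Both followed Tek in that diabetes 2 stood far above all others. Podxl, a sialomucin related to Cd34, departed from this, at 12.5 CPM in both curcumin-treated libraries, 6.64 and 12.0 CPM in the diabetic ones and 27.1 CPM in control 1. Like Flt1, it was highest in the control.

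Of 10 transcription factors of endothelium, 2 were positive with curcumin against diabetes and 0 called. Erg had 2.77 and 1.13 CPM in curcumin-treated libraries, 2.51 and 10.2 CPM in diabetic ones and 3.29 CPM in control 1, and Fli1 had 6.62 and 3.23 CPM in curcumin-treated libraries, 2.32 and 23.1 CPM in diabetic ones and 1.37 CPM in control 1. Both of these ETS factors were highest in diabetes 2. Gata2, which acts in endothelial, blood and epithelial cells, had 252 and 14.0 CPM in the curcumin-treated libraries, 8.76 and 4.10 CPM in the diabetic ones and 21.1 CPM in control 1. It ran the other way, lowest in diabetes 2, and was among the genes at an unadjusted p under 0.05 against diabetes (edgeR adjusted p = 0.852).

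Among 10 arterial and venous genes, 6 were positive against diabetes and 0 called. Nr2f2, which sets venous fate and is also made by stromal cells, had 199 and 47.2 CPM in the curcumin-treated libraries, 32.5 and 14.9 CPM in the diabetic ones and 50.3 CPM in control 1. The arterial connexin Gja4 had 7.12 and 17.3 CPM in curcumin-treated libraries, 6.44 and 2.99 CPM in diabetic ones and 15.6 CPM in control 1. Both were lowest in diabetes 2, as were 3 of the 10, while 4 of the 10 were highest there, as 7 of the 8 blood vessel members were.

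The 10 ligands and co-receptors pointed both ways, with 6 positive against diabetes, 8 in diabetes against control, and 0 called in either. Angpt4, an angiopoietin that binds Tek, had 9.67 and 8.01 CPM in the curcumin-treated libraries, 1.61 and 0.788 CPM in the diabetic ones and 6.70 CPM in control 1. Its diabetic libraries were below all others, with a log2 fold change of 2.89 for curcumin against diabetes (SE 0.81, edgeR adjusted p = 0.852) and of -2.36 for diabetes against control (SE 0.90, edgeR adjusted p = 1), and both were at an unadjusted p under 0.05. Angpt2, the ligand that opposes Angpt1 at Tek in many settings, ran the other way, at 2.66 and 0.636 CPM in curcumin-treated libraries, 4.32 and 8.31 CPM in diabetic libraries and 2.41 CPM in control 1. Nrp1, a co-receptor of Kdr, had 23.6 and 27.4 CPM in curcumin-treated libraries, 18.6 and 118 CPM in diabetic ones and 15.3 CPM in control 1. Vegfc, a ligand of Flt4, had 12.7 and 3.96 CPM in the curcumin-treated libraries, 0.982 and 11.0 CPM in the diabetic ones and 1.74 CPM in control 1. Nrp1 was highest in diabetes 2, whereas Vegfc was highest in curcumin-treated 1 and nearly as high in diabetes 2.

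A list of 7 further lymphatic genes gave 5 positive values against diabetes and 0 calls. Ccl21a, the chemokine that lymphatic endothelium releases, had 56.4 and 5.85 CPM in the curcumin-treated libraries, 0.786 and 10.05 CPM in the diabetic ones and 12.8 CPM in control 1. Its order was that of Flt4, except that diabetes 1 was not at 0. Lyve1, a hyaluronan receptor that some macrophages also carry, had 6.72 and 0.731 CPM in curcumin-treated libraries, 0 and 26.2 CPM in diabetic libraries and 1.11 CPM in control 1. It was highest in diabetes 2, as were 9 of 10 macrophage genes. Pdpn, which epithelial and stromal cells also make, had 21.0 and 69.8 CPM in curcumin-treated libraries, 71.2 and 19.1 CPM in diabetic libraries and 75.4 CPM in control 1.

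Capillary and fatty acid uptake genes of fat (8 genes) were all highest in diabetes 2, and 7 of 8 were lowest in diabetes 1. They summed to 1459 and 83.5 CPM in curcumin-treated libraries, 65.7 and 20420 CPM in diabetic libraries and 175 CPM in control 1. Most of these sums was held by Lpl, an adipocyte gene that the adipocyte list also holds, and by Cd36, which adipocytes make as well. Gpihbp1, the capillary protein that holds lipoprotein lipase and a gene chosen after its values were seen, had 33.2 and 2.10 CPM in curcumin-treated libraries, 3.65 and 112 CPM in diabetic libraries and 15.5 CPM in control 1. Its gap inside each replicated group was wider than that of Pecam1. Of 8 genes of endothelial activation, 7 were tested, 0 were positive against diabetes and 0 were called. Among them Nos3, the endothelial nitric oxide synthase, had 9.17 and 4.05 CPM in curcumin-treated libraries, 0.747 and 42.2 CPM in diabetic libraries and 7.59 CPM in control 1. Sele, the selectin of inflamed endothelium and likewise named after its values were seen, had at most 10 counts in any library.

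Marker lists of other cell types were summed in the same libraries. Macrophage genes (10) summed to 456 and 316 CPM in the curcumin-treated libraries, 144 and 2449 CPM in the diabetic ones and 191 CPM in control 1, with 9 of 10 highest in diabetes 2. Stromal progenitor genes (7) summed to 654 and 409 CPM in curcumin-treated libraries, 404 and 1660 CPM in diabetic ones and 466 CPM in control 1. Of 11 blood cell genes, 10 were tested, and the 4 haemoglobin genes among them summed to 266 and 334 CPM in curcumin-treated libraries, 50.1 and 1379 CPM in diabetic libraries and 245 CPM in control 1. Diabetes 1 was thus the lowest and diabetes 2 the highest library for the sums of the members, the 18 further endothelial genes and the adipocyte, macrophage, stromal and haemoglobin lists. The arterial and venous sum (72.4 CPM) and the further lymphatic sum (78.3 CPM) were instead lowest in diabetes 2. The sum of the endothelial transcription factors was highest in curcumin-treated 1 (338 CPM), as were those sums. The stromal sum was nearly level in diabetes 1 and curcumin-treated 2, however. Of the 7 stromal genes, 3 were lowest in diabetes 1 and 5 highest in diabetes 2. Pdgfra and Dpp4, named after their values were seen, were higher in diabetes 1 (145 and 92.4 CPM) than in diabetes 2 (79.1 and 20.1 CPM). Mural genes (12 genes of pericytes and smooth muscle) summed to 36764 and 979 CPM in curcumin-treated libraries, 458 and 570 CPM in diabetic ones and 1228 CPM in control 1, so diabetes 1 was again lowest, for the sum and for 8 of the 12 genes, but curcumin-treated 1 was highest. Contractile genes such as Des (5046 and 257 CPM in curcumin-treated libraries, 36.0 and 37.9 CPM in diabetic ones, 103 CPM in control 1) made most of the sum in curcumin-treated 1. Cspg4, Kcnj8 and Abcc9 were also highest in curcumin-treated 1, at 122, 111 and 45.8 CPM. Notch3 was highest in diabetes 1, at 46.4 CPM against 22.9 CPM in diabetes 2. The pericyte genes Pdgfrb and Rgs5 instead ran as the members did. All 6 of these genes were singled out after their values were seen. Pdgfrb had 19.9 and 13.7 CPM in curcumin-treated libraries, 3.30 and 63.5 CPM in diabetic ones and 27.6 CPM in control 1. Of the 12 mural genes, 6 had an unadjusted edgeR p under 0.05 against diabetes, as had 2.33% of all genes tested, and 0 were called. Curcumin-treated 1 was the highest library for 9 of the 12. The 6 mesothelial genes summed to 441 and 305 CPM in curcumin-treated libraries, 305 and 15.5 CPM in diabetic libraries and 212 CPM in control 1, of which the epithelial keratin Krt19 made the largest part in every library but diabetes 2. Of the 6, 4 were strictly highest in diabetes 2 and 1 was strictly lowest there, so the sum did not follow most of these genes. The part of these cell types in the members' levels was not tested.

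**Figure D4:**
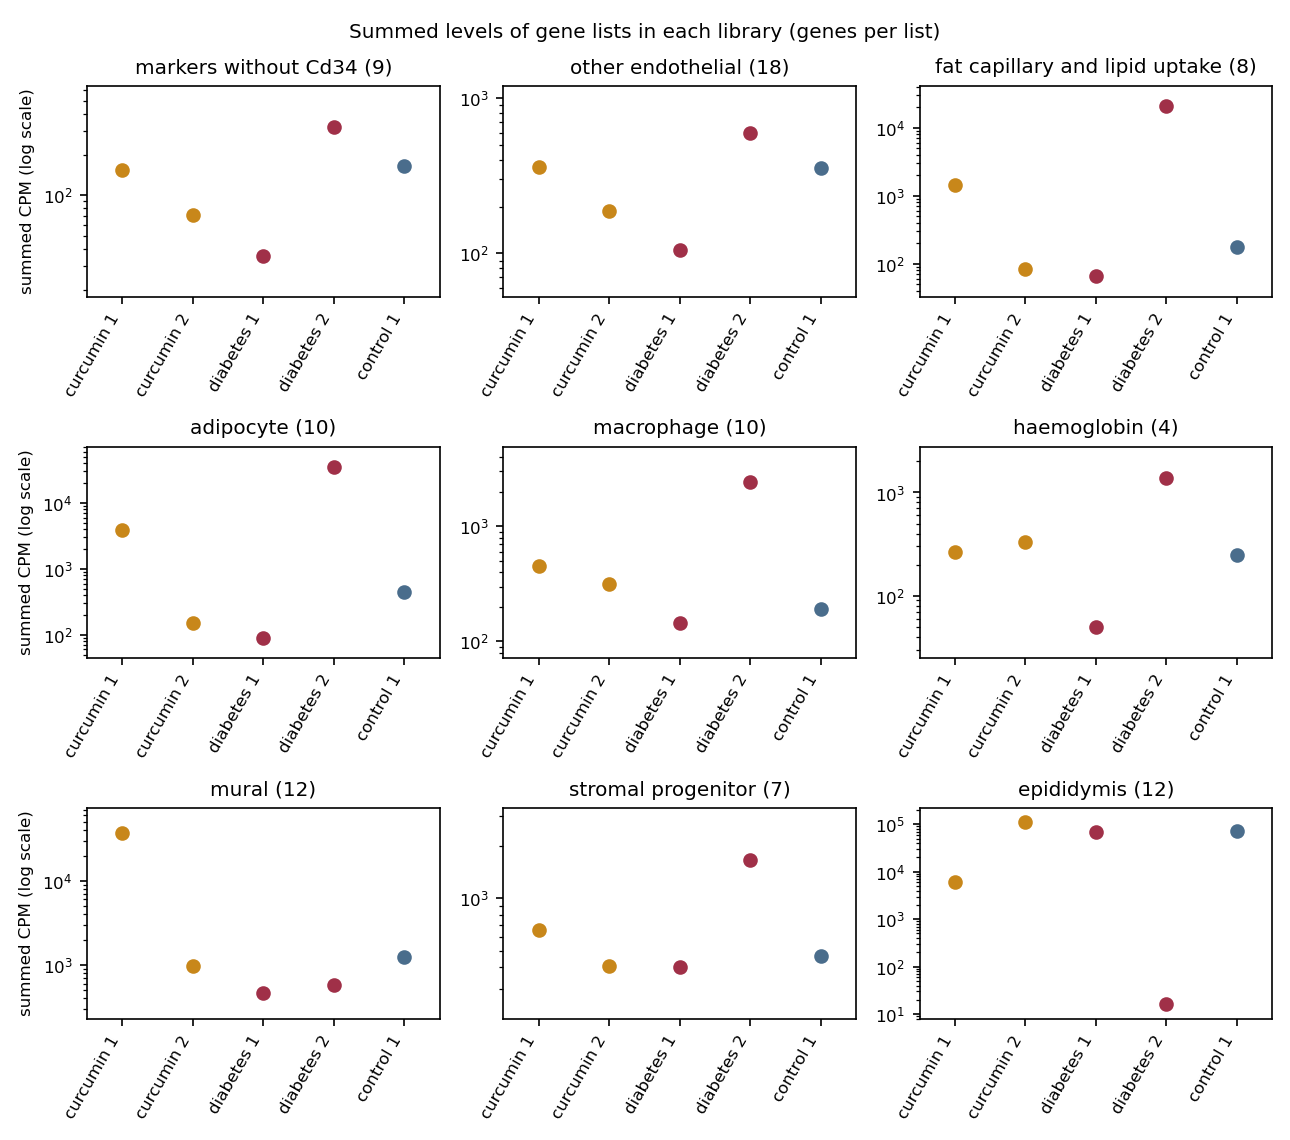
Summed CPM of 9 gene lists in each library on log axes, with the number of genes in brackets and 1 point per library. Lpl is in both the fat capillary and the adipocyte list. The markers without Cd34 run from 35.6 CPM in diabetes 1 to 321 CPM in diabetes 2, as adipocyte, macrophage and haemoglobin lists also do, while the epididymal list is lowest in diabetes 2 (16.0 CPM) and the mural list highest in curcumin-treated 1 (36764 CPM).

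Likeness to the members was measured as Pearson's r with their mean log2 CPM over the 5 libraries, as a description with so few points that many genes score high. Among 14496 named genes with at least 10 counts in every library, 485 (3.35%) reached 0.9 and 14 reached 0.99. The 5 most alike were Zfp90 (0.9975), Sbno2 (0.9970), Tnfsf10 (0.9963), St3gal4 (0.9949) and Leprot (0.9937). Their ranges were mostly narrow, from 57.5 CPM in diabetes 1 to 83.9 CPM in diabetes 2 for Leprot, and from 2.08 to 20.3 CPM in the same libraries for St3gal4. Within the list itself, Vwf was closest to the mean of which it is a part (0.991) and Cd34 the least close of the 8 blood vessel members (0.396). Outside the list, the pericyte gene Pdgfrb and the VEGF receptor ligand Vegfd reached 0.983, while the placental growth factor gene Pgf, a ligand of Flt1, stood at -0.734. Pgf had 16.6 and 55.6 CPM in curcumin-treated libraries, 62.2 and 3.39 CPM in diabetic libraries and 62.0 CPM in control 1. These last 3 genes were chosen after their values were seen. All points share the library totals and the same 5 libraries.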

How the data were processed

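Gene expression was measured by poly-A RNA-seq (paired reads, strand-marking kit, per the labels' protocols) in 5 libraries. The authors deposited whole-number counts per Ensembl gene, not normalised, in a single table. Tools named in the submitters' processing notes are FastQC and featureCounts, with build GRCm39. For strand setting, aligner and annotation release the entry is "not given in the sources used here", so antisense reads cannot be told apart. Symbols were matched by identifier for 51486 genes (65.7%), including all 145 genes of the lists. The 10 markers and the other lists were chosen with earlier results of these data known. Genes kept by filterByExpr were scaled by TMM and fitted in 1 model of all 5 libraries and 3 groups by edgeR 4.0.16's robust quasi-likelihood test (R 4.3.3; 2 residual degrees of freedom; biological coefficient of variation 1.068), two-sided, with Benjamini-Hochberg adjustment over all genes at 0.05; the lone control borrowed its variance from the replicated groups. The SE is the log2 fold change over the square root of F. DESeq2 1.42.0 and limma 3.58.1 (voom) served as alternatives, beside other scalings and filters, a replicate block and leaving out libraries. CPM, Wilson and exact Poisson intervals (95%) use library totals. Levels for likeness use a prior count of 2. The named genes were all 10 markers, the 2 of each other list with the smallest edgeR p per comparison, and the 5 most alike in pattern; only some of the list genes are described, and those chosen after seeing values are marked. Lengths and overlaps came from the GRCm38 annotation.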

Additional observations from a re-analysis of the deposited data

How the results depend on the processing

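Genes called past an adjusted p of 0.05 numbered 0 in each comparison under every edgeR and limma-voom setting, and 95, 58 and 77 with DESeq2 in the order curcumin-treated against diabetes, then the model and last the treated group against control. DESeq2 gave Prox1 no adjusted p in the first 2 comparisons. No member was called in any setting; over the alternatives the members' smallest adjusted p was 0.529, 0.498 and 0.975 in the same order. Whether the replicate numbers pair the libraries is not stated in the labels. Deviations of same-numbered curcumin-treated and diabetic libraries correlated at r = -0.41 over 29855 genes. That value cannot decide it, since replicates also differed in adipocyte and epididymal transcripts. The fit with a replicate block left 0 calls in each comparison, and its unadjusted calls against diabetes numbered 216. A crossed pairing, chosen after seeing the data, also gave 0 calls, with 701 unadjusted against diabetes.

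For curcumin-treated against diabetes the members' median of -0.46 became 0.10 with limma-voom and 0.064 with the replicate block, and ran from -1.25 to 1.70 when 1 library was left out. Kdr, Flt1, Tie1 and Vwf turned to 0.088, 0.21, 0.29 and 0.12 with limma-voom and to 0.057, 0.13, 0.28 and 0.071 with the replicate block. Leaving out 1 library at a time gave ranges of -2.04 to 1.71 (Pecam1), -2.22 to 1.91 (Cdh5), -1.38 to 1.70 (Kdr), -1.27 to 1.56 (Flt1), -2.32 to 0.64 (Tek), -1.49 to 2.29 (Tie1), -1.24 to 1.40 (Vwf), -0.97 to 0.13 (Cd34) and -0.58 to 10.20 (Flt4, whose upper end faces 0 counts and is no bound).

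For diabetes against control the median of 0.22 became -0.051 with totals that leave out epididymal and adipocyte genes, -0.28 with limma-voom and -0.62 with the replicate block, and ran from -2.05 to 1.03 with libraries left out. Pecam1, Cdh5, Kdr and Vwf turned to -0.10, -0.34, -0.69 and -0.23 with limma-voom and to -0.15, -0.47, -0.78 and -0.58 with the replicate block; Kdr also turned to -0.14 with library totals and -0.19 with the reduced totals. Ranges with a library left out were -1.92 to 1.83 (Pecam1), -2.33 to 1.81 (Cdh5), -2.17 to 0.91 (Kdr), -2.77 to 0.053 (Flt1), -0.77 to 2.19 (Tek), -2.86 to 0.60 (Tie1), -1.50 to 1.14 (Vwf) and -0.68 to 0.26 (Cd34).

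For curcumin-treated against control the median ran from -1.05 to 0.027 with a library left out, Pecam1 from -1.02 to 0.29, Cdh5 from -1.08 to 0.022, Tie1 from -1.76 to 0.069, Vwf from -0.26 to 0.032 and Flt4 from -1.80 to 0.30. Scaling by totals without TMM moved the median of all genes there to 0.030, against 0.17. The members' sum in control 1 was 242 CPM with TMM and 262 CPM with totals. The ratio difference of Cdh5 was 0.048 against Pecam1 alone as base, and -0.044 against the other members. The cause of these turns was not tested. Where a fit left a group with 1 library, that library was assumed to vary like the others.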
